A study of Mus musculus with 18 samples.

Results

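The genes described here encode the DNA replication machinery, 40 genes in 4 functional groups. Origin licensing and the replicative helicase hold 17 of them, and the polymerases, clamp and Okazaki fragment enzymes 13. Nucleotide supply holds 5, and the group named chromatin assembly 5. That last group also holds genes of other functions, Ezh2, Slbp and Uhrf1, which are described below. The 40 genes were taken from a list of named genes, which was chosen with earlier results of these data known. The brightest probe set stood for each. Of the 40, 38 were measured among 17091 genes; the clamp gene Pcna and the chromatin assembly gene Chaf1a had no matched probe set and are not analysed here. The mouse samples were primary embryonic fibroblasts, embryonic brain at E18.5 and embryonic stem (ES) cells. In each, 3 wild-type samples, which the titles call controls, were set against 3 samples with the genotype CCNC-/-, the loss of both copies of cyclin C (Ccnc), and each sample was hybridised to 1 expression array, 18 in all. Growth conditions are labelled only as standard, and no other allele, treatment or drug is named. The strain, how the deletion was made and whether the samples of a group came from different clones or embryos are not stated in the labels, so p-values measure only the spread between these samples.

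Cyclin C pairs with the kinases CDK8 and CDK19 in a detachable part of Mediator, which connects transcription factors to RNA polymerase II. Replication begins when the origin recognition complex, with Cdc6 and Cdt1, loads the ring of MCM helicase proteins onto DNA in G1, and the helicase is switched on in S phase by Cdc45, the GINS complex and Mcm10. Polymerase alpha with its primase lays down primers, polymerases epsilon and delta extend them on a clamp loaded by the RFC complex, and Fen1 and Lig1 join the lagging-strand fragments. Many of these genes are targets of the E2F transcription factors and are transcribed as cells enter S phase, so they are abundant in cycling cells and scarce in cells that have left the cycle.

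Values are log2 expression after RMA, a method that summarises the probes of a transcript and puts the arrays on a common scale, and a difference of 1 is a 2-fold difference in signal. Array medians lay between 8.259 and 8.35, and 35 of the 38 genes were above the median gene. Fibroblast arrays were the most alike: the median standard deviation (SD) of the replication genes was 0.064 in wild-type and 0.068 in knockout fibroblasts, against 0.11 and 0.179 in ES cells and 0.135 and 0.164 in brain. The pluripotency markers had an array median of 12.72 to 13.27 in ES cells and 6.19 to 6.79 elsewhere. The fibroblast markers had one of 12.70 to 13.09 in fibroblasts and at most 9.90 elsewhere, and the neuronal markers one of 10.82 to 11.22 in brain and at most 7.24 elsewhere. The knockout ES array 1 stood apart, with a median of 10.67 for 7 extraembryonic endoderm markers against 7.35 to 7.81 on the other ES arrays (Gata4 at 9.95, Gata6 at 10.80 and Sox17 at 9.47). In bulk RNA, fewer cells in S phase and less of an mRNA in each such cell cannot be told apart.

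Ccnc itself read 9.28, 9.47 and 9.14 in wild-type ES cells and 6.68, 6.78 and 7.33 in knockout ES cells. In fibroblasts it read 9.56, 9.61 and 9.54 against 8.28, 8.24 and 8.30. In brain it read 8.82, 8.65 and 9.24 against 8.17, 8.08 and 8.37. The knockout arrays were below the wild-type arrays in all 3 cell types. The log2 fold change, knockout minus wild type, was -2.37 (standard error, SE, 0.19; limma adjusted p = 0.0247) in ES cells, where the call was lost in 7 of 17 alternatives, and -1.29 (SE 0.05; adjusted p = 6.77e-06) in fibroblasts. In brain it was -0.695 (SE 0.15), which was not called over all genes (adjusted p = 0.627) but was called with same-numbered arrays paired (adjusted p = 0.0426). The alternatives that lost the ES call were the pairing of same-numbered arrays (0.0677), the mean of the probe sets (-1.76, adjusted p = 0.0733) and the omission of wild-type array 1, 2 or 3, knockout array 2 or both arrays numbered 1 (0.0536 to 0.299). Where the Ccnc probe set lies relative to the deleted part is not stated in the labels.

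In knockout fibroblasts, replication genes were lower. Of the 38 genes, 11 fell (limma with Benjamini-Hochberg adjustment over all genes, adjusted p below 0.05), none rose and 27 were not called; among all 17091 genes, 4.93% fell and 7.11% rose. The 11 genes fell to between 71.6% and 86.1% of the wild-type signal. A log2 fold change below 0 was measured for 34 of the 38 (45.6% of all genes), with a median of -0.14 against 0.01 over all genes. All 3 knockout arrays lay below all 3 wild-type arrays for 20 replication genes, against 12.5% of all genes, and above them for Cdt1 alone, against 18.4%. Because the gene list was chosen with earlier results of these data known, its excess over these shares is not independent support. Of the nucleotide supply genes 4 of 5 fell (median -0.35), while 3 of 12 polymerase genes fell (median -0.16), 3 of 17 licensing and helicase genes (median -0.11) and 1 of 4 chromatin assembly genes (median -0.17); differences between the groups were not tested. In a fit of all 18 arrays, in which fibroblasts share the wider spread of ES cells and brain, 1 of the 11 calls was kept, Lig1. Leaving out 1 fibroblast array at a time gave 6 to 12 called genes, with 6 of them (Ezh2, Lig1, Mcm5, Pola1, Rrm1 and Rrm2) called each time. The count was 6 without wild-type array 2 or without knockout array 2.

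**Figure D1:**
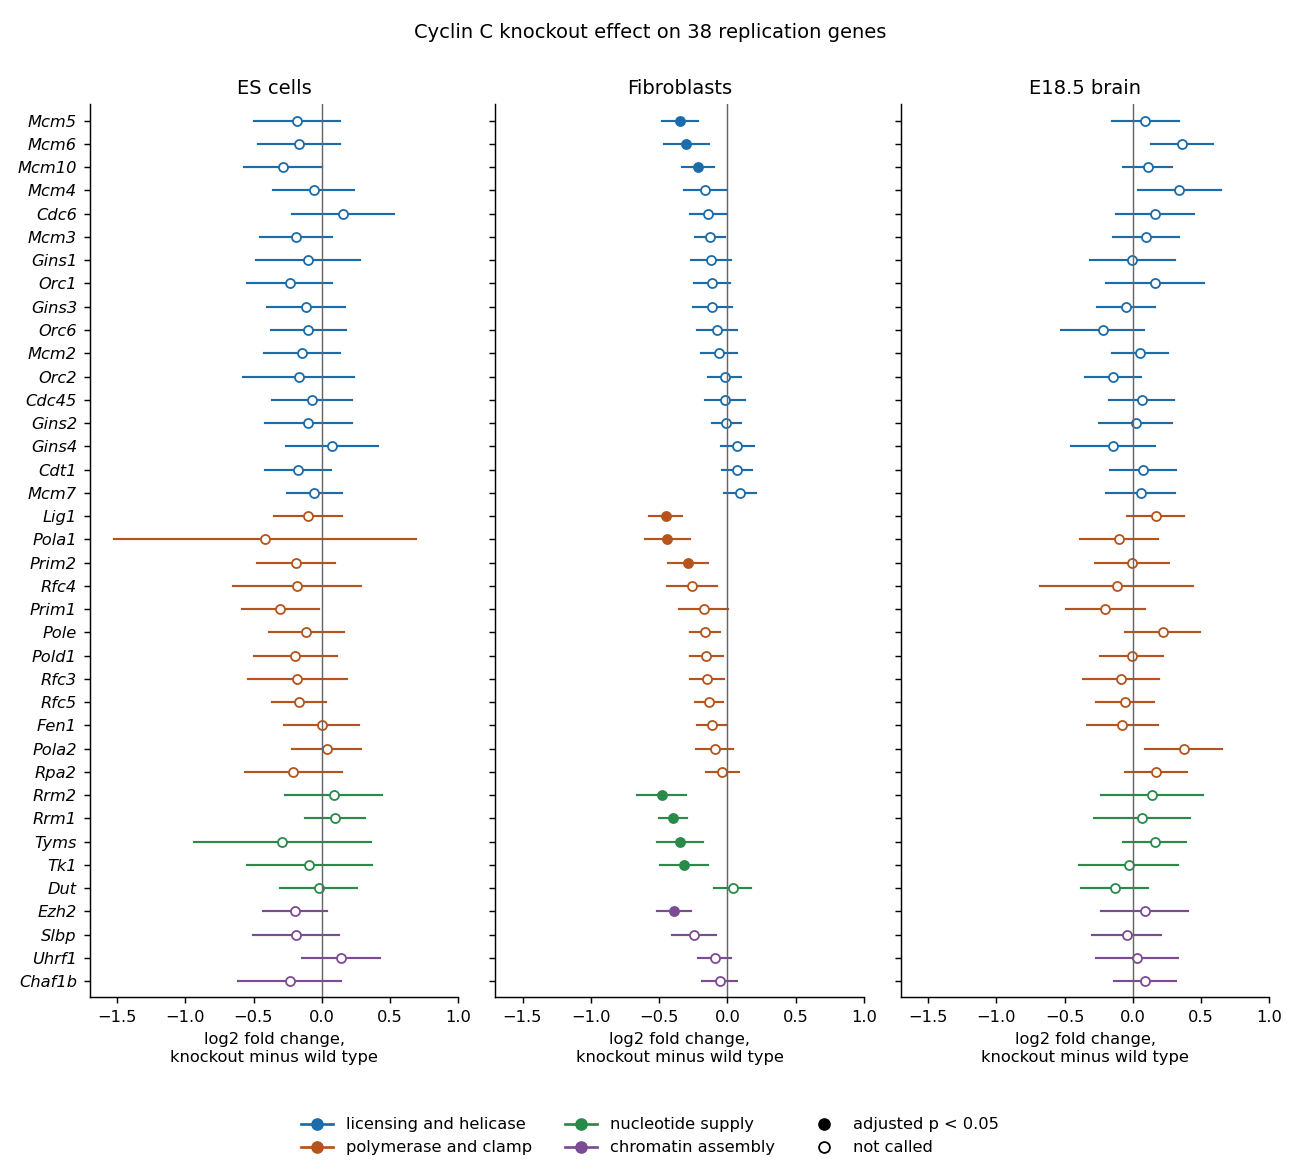
Log2 fold change of the 38 replication genes, knockout minus wild type, with 95% confidence intervals from limma, in ES cells, fibroblasts and E18.5 brain (3 arrays per group). Filled points had an adjusted p below 0.05: 11 in fibroblasts, all below 0, and none in ES cells or brain.

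The promoter windows of the strongest fibroblast genes are shown because E2F sites are the feature for which this gene class is known. The windows run from 250 bases before to 50 bases after an annotated transcription start in RefSeq (mouse build GRCm38.p6), and are given for the gene of each functional group with the smallest p in fibroblasts. Each is written 5′ to 3′ in the direction of the gene, with matches to the E2F words TTTCCCGC, TTTGGCGC, TTTCGCGC and TTTGCCGC and to the CCAAT box, on either strand, in capitals. The windows lie at chr8:75109259-75109558 (Mcm5, plus strand), chr7:13278576-13278875 (Lig1, plus strand, the middle of 3 annotated starts), chr7:102441445-102441744 (Rrm1, plus strand) and chr6:47594981-47595280 (Ezh2, minus strand).
Mcm5: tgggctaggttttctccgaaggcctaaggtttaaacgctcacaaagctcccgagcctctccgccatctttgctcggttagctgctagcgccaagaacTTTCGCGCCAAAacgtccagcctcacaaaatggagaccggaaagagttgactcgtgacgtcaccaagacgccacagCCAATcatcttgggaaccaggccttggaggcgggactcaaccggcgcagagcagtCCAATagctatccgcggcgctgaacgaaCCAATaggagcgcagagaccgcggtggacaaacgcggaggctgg
Lig1: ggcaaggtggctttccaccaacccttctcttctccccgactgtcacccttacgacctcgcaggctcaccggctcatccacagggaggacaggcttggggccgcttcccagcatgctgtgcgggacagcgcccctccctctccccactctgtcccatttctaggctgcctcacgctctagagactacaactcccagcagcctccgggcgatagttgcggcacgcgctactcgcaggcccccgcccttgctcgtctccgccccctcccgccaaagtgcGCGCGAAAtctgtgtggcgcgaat
Rrm1: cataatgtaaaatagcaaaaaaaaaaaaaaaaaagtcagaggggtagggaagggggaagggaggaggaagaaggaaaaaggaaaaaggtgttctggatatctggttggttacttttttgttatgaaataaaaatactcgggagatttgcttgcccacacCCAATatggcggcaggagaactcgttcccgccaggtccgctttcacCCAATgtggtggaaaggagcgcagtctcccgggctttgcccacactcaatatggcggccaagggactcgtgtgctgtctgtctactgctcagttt
Ezh2: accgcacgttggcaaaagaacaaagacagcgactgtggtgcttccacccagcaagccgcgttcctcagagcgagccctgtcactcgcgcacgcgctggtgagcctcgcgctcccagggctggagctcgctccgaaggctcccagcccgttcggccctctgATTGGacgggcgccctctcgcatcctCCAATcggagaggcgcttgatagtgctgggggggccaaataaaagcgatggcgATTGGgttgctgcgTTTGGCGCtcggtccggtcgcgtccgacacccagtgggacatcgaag
Mcm5 carried a pair of overlapping E2F words on opposite strands, beginning 153 and 149 bases before the start, and 3 CCAAT boxes. Ezh2 carried 1 E2F word from base 4 after the start and 3 CCAAT boxes, beginning 90, 64 and 11 bases before it. The Lig1 window shown held 1 E2F word, and the windows of the other 2 Lig1 starts held none. Rrm1 held no E2F word and 2 CCAAT boxes, beginning 91 and 45 bases before the start.

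An E2F word was present for 14 of the 32 measured replication genes with a promoter entry (43.8%), against 2.6% of the 27025 genes in the RefSeq table. It was present for 5 of the 10 genes with an entry that fell in fibroblasts (50%) and for 9 of the 22 that were not called (40.9%). A CCAAT box was present for 20 of 32 (62.5%, against 41.1% of all genes). The word TTTGAA, the core of the CHR element of genes expressed late in the cycle, was present for 4 of 32 (12.5%, against 20.2%) and for none of the 10 that fell. The shares among 46 further replication genes with an entry, a list described below, were 26.1% (E2F), 52.2% (CCAAT) and 26.1% (TTTGAA). A word match is a description of the sequence and not a measured binding site.

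**Figure D2:**
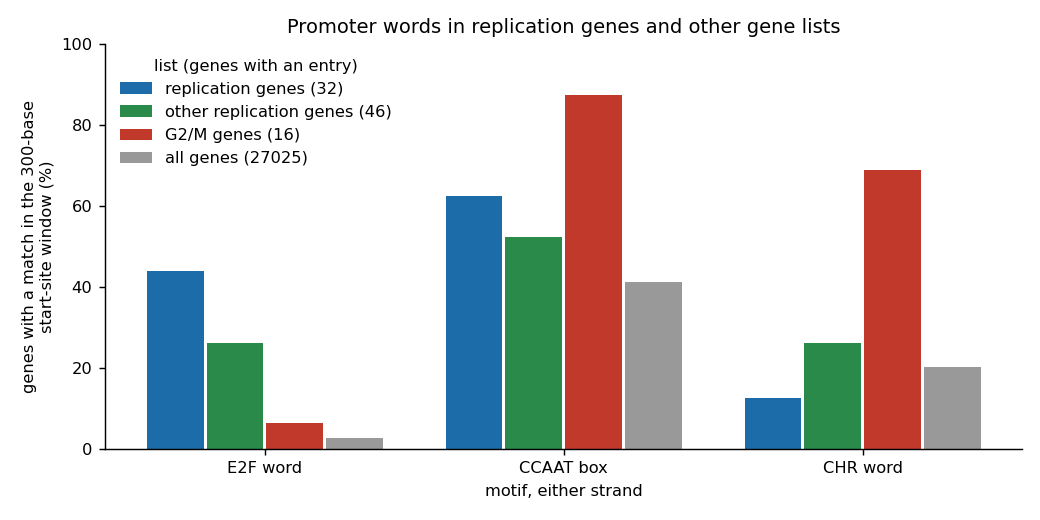
Share of genes (%) with at least 1 match to an E2F word, a CCAAT box or the CHR word TTTGAA on either strand of the promoter window, for the replication genes, 2 comparison lists and all genes in the RefSeq table; the number of genes with an entry is in the legend. The E2F word was present in 43.8% of the replication genes, 26.1% of the other replication genes and 6.25% of the G2/M genes. The CHR word was present in 12.5%, 26.1% and 68.8%.

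Among licensing and helicase genes in fibroblasts, the 3 that fell were Mcm5, Mcm6 and Mcm10. Mcm5, a subunit of the helicase ring whose promoter is shown above, read 10.18, 10.23 and 10.18 in wild-type arrays 1 to 3 and 9.86, 9.74 and 9.96 in knockout arrays 1 to 3. Every knockout array was below every wild-type array, and the log2 fold change was -0.35 (SE 0.06; limma adjusted p = 0.00637). Mcm6, another ring subunit, read 10.96, 11.05 and 10.89 against 10.79, 10.51 and 10.70. The groups did not overlap, with knockout array 2 the lowest, and the log2 fold change was -0.30 (SE 0.07; limma adjusted p = 0.0288). Mcm10, which binds the helicase when it is activated, read 9.20, 9.17 and 9.23 against 9.04, 8.93 and 8.99. The groups were apart, and the change, -0.22 (SE 0.05; limma adjusted p = 0.0261), was the smallest among the 11 genes. The calls of Mcm6 and Mcm10 were each lost on leaving out any 1 of 4 and of 5 arrays, with adjusted p up to 0.107 and 0.112.

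The remaining licensing genes were not called. The helicase subunits Mcm3 and Mcm4 had log2 fold changes of -0.13 and -0.165 (adjusted p = 0.123 and 0.154), and the loading factor Cdc6 one of -0.14 (adjusted p = 0.178). Mcm2 was at -0.06 (adjusted p = 0.593). Mcm7 was at 0.09, with 11.40, 11.51 and 11.39 in wild type and 11.46, 11.54 and 11.58 in knockout (adjusted p = 0.303). The 6 subunits of the helicase ring, which act as 1 complex, ranged from -0.35 to 0.09. The difference Mcm5 minus Mcm7 was -1.22, -1.28 and -1.21 in the 3 wild-type arrays and -1.60, -1.81 and -1.62 in the 3 knockout arrays, a pair chosen after the values were seen and given without a test. The other loading factor, Cdt1, read 10.69, 10.72 and 10.58 in wild type and 10.72, 10.74 and 10.74 in knockout (0.07, adjusted p = 0.411). Origin recognition genes Orc1, Orc2 and Orc6 were at -0.11, -0.02 and -0.08, the helicase activator Cdc45 at -0.02, and the GINS subunits between -0.12 (Gins1) and 0.07 (Gins4). Among these 8 genes the smallest adjusted p was 0.275, and all confidence intervals lay within 0.5 log2 units of 0.

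**Figure D3:**
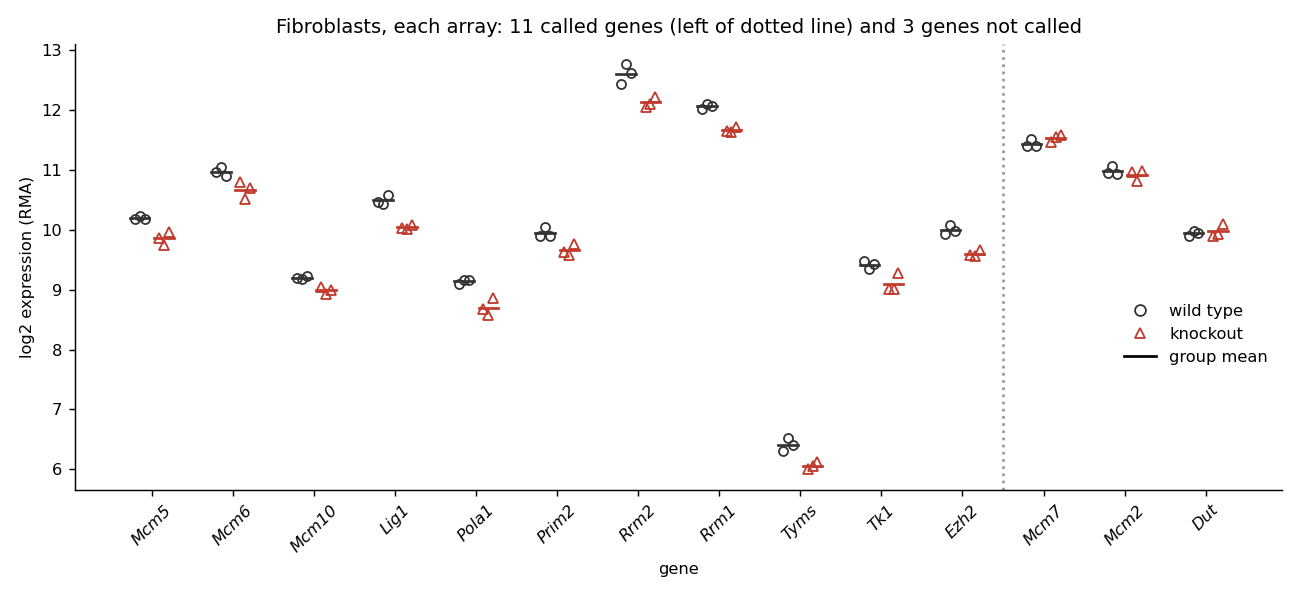
Log2 expression of the 11 replication genes called in fibroblasts and of Mcm7, Mcm2 and Dut, which were not called, on each of 3 wild-type (circles) and 3 knockout (triangles) arrays, with group means as lines. For each of the 11 called genes the knockout arrays lie below the wild-type arrays, while the groups overlap for the other 3.

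Of the polymerase and clamp genes, all 12 measured had a log2 fold change below 0 in fibroblasts, and Lig1, Pola1 and Prim2 fell. Lig1, the ligase that seals lagging-strand fragments, read 10.46, 10.43 and 10.58 in wild type and 10.02, 10.01 and 10.08 in knockout. All 3 knockout arrays lay below the lowest wild-type array, at 73.2% of the wild-type signal, and the log2 fold change was -0.45 (SE 0.05; limma adjusted p = 0.00123). Pola1, the catalytic subunit of polymerase alpha, read 9.10, 9.16 and 9.16 against 8.67, 8.57 and 8.86. The log2 fold change was -0.44 (SE 0.07; limma adjusted p = 0.00569), and knockout array 3 was nearest to wild type. Prim2, the large primase subunit, read 9.89, 10.04 and 9.89 against 9.63, 9.57 and 9.76. Its log2 fold change was -0.29 (SE 0.07; limma adjusted p = 0.0205), and the call was lost without wild-type array 2 (0.0803) or knockout array 2 (0.0912). The partners of these subunits in the same complex, Pola2 and Prim1, were not called, at -0.09 (adjusted p = 0.381) and -0.17 (adjusted p = 0.203).

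No gene of strand extension or clamp loading was called in fibroblasts. Pole and Pold1, the catalytic subunits of polymerases epsilon and delta, were at -0.16 and -0.15 (adjusted p = 0.0648 and 0.0974), and their groups did not overlap. The clamp loader subunits Rfc3, Rfc4 and Rfc5 were at -0.15, -0.26 and -0.14 (adjusted p = 0.112, 0.0694 and 0.0857), again with groups that did not overlap. Rfc4 was called with same-numbered arrays paired (adjusted p = 0.0326). The flap endonuclease Fen1 was at -0.11 (adjusted p = 0.193) and Rpa2, a subunit of the protein that coats single-stranded DNA, at -0.04 (adjusted p = 0.726).

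Nucleotide supply genes fell in fibroblasts with 1 exception, Dut. Rrm1, the large subunit of ribonucleotide reductase, which makes deoxyribonucleotides, read 12.01, 12.10 and 12.06 in wild-type fibroblasts and 11.65, 11.63 and 11.71 in knockout fibroblasts. Its log2 fold change was -0.395 (SE 0.045; limma adjusted p = 0.00102), the smallest p of the 38 genes. Rrm2, the small subunit that peaks in S phase, read 12.43, 12.76 and 12.62 against 12.05, 12.10 and 12.22. At 71.6% of the wild-type signal it had the largest fall of the 38, -0.48 (SE 0.08; limma adjusted p = 0.0054). Tyms, the thymidylate synthase, read 6.31, 6.52 and 6.40 against 6.0, 6.06 and 6.13. The change was -0.35 (SE 0.08; limma adjusted p = 0.0181), and a second, dimmer probe set gave -0.38 (SE 0.076; adjusted p over all probe sets 0.012). The Tyms call was lost without wild-type array 2 (0.0707), wild-type array 3 (0.0552) or knockout array 2 (0.066). Tk1, the thymidine kinase of the salvage route, fell by 0.32 (SE 0.08; limma adjusted p = 0.0275) with groups that did not overlap. Leaving out any 1 of 5 arrays took the Tk1 call away (adjusted p up to 0.115). The dUTPase gene Dut, which keeps uracil out of DNA, did not follow the other 4: 9.90, 9.97 and 9.94 in wild type and 9.90, 9.92 and 10.10 in knockout (0.04, SE 0.06; adjusted p = 0.754).

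In the group named chromatin assembly, Ezh2 fell. This Polycomb histone methyltransferase read 9.93, 10.07 and 9.97 in wild-type and 9.57, 9.56 and 9.66 in knockout fibroblasts. All knockout arrays were below all wild-type arrays, and the log2 fold change was -0.39 (SE 0.06; limma adjusted p = 0.00289). Slbp, which binds the stem-loop of histone mRNAs, read 10.81, 11.01 and 10.87 against 10.58, 10.60 and 10.80. Its knockout array 3 lay next to wild-type array 1; the log2 fold change of -0.24 was not called (adjusted p = 0.0573) but was with same-numbered arrays paired (adjusted p = 0.017). Uhrf1, which brings the maintenance DNA methyltransferase to newly copied DNA, read 9.67, 9.62 and 9.56 against 9.46, 9.51 and 9.60 (-0.09, adjusted p = 0.324). Chaf1b, a subunit of the chromatin assembly factor CAF-1, was at -0.06 (adjusted p = 0.59).

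Other genes of the cell cycle fell in the same fibroblasts. Of 54 further replication genes, 15 fell and 1 rose, Pole4 (0.23, SE 0.05; limma adjusted p = 0.0238), a small accessory subunit of polymerase epsilon; the median log2 fold change was -0.13. The 4 with the smallest p were Dck, a salvage kinase (-0.37, adjusted p = 0.00508), Pold3, an accessory subunit of polymerase delta (-0.48, adjusted p = 0.00514), the histone chaperone Asf1a (-0.39, adjusted p = 0.00635) and Topbp1, which helps fire origins (-0.325, adjusted p = 0.00658). Of 19 measured G2/M genes, 14 fell and none rose, with a median of -0.34; the spindle gene Prc1 (-0.46, adjusted p = 0.000578), the mitotic kinases Plk1 (-0.45, adjusted p = 0.000621) and Aurka (-0.38, adjusted p = 0.0022) and the spindle gene Nusap1 (-0.465, adjusted p = 0.0012) led them. Of 17 regulators of S-phase entry, 5 fell. Cyclin E2, Ccne2, which activates Cdk2 at the G1/S boundary, read 8.82, 9.23 and 8.83 in wild type and 7.83, 7.57 and 7.65 in knockout (-1.28, SE 0.11; limma adjusted p = 0.000372). It was followed by the pocket protein gene Rbl1 (-0.54, adjusted p = 0.000781), the S-phase cyclin Ccna2 (-0.41, adjusted p = 0.00258) and the repressor E2F genes E2f7 (-0.30, adjusted p = 0.0298) and E2f8 (-0.225, adjusted p = 0.024). The calls of E2f7 and E2f8 were each lost on leaving out any 1 of 5 arrays (adjusted p up to 0.109 and 0.0916), and that of Pole4 on leaving out any 1 of 3 (up to 0.1). In the fit of all 18 arrays, 1 of the 54, 4 of the 19 and 2 of the 17 fell. Fewer of all genes fell in that fit too, with the count given in the closing section.

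Cell type markers moved in these fibroblast arrays too. Of 7 fibroblast markers, 5 fell (array medians 12.97 to 13.09 in wild type and 12.70 to 12.77 in knockout), among them Dcn (-1.22) and Pdgfra (-1.11). Of 6 smooth muscle markers, 4 rose (13.26 to 13.58 against 13.71 to 13.89), among them Myh11 (0.93), and 3 of 6 epithelial markers rose (6.55 to 6.57 against 6.64 to 6.83). No marker of pluripotent cells, microglia or erythroid cells was called. For the remaining lists directions in same-numbered pairs are given in place of calls, although the labels state no pairing. Whether any marker of those lists was called is not given. In all 3 same-numbered pairs the knockout array was higher for 3 of 5 endothelial markers and lower for 0. The counts were 2 and 1 of 6 neuronal markers and 2 and 1 of 7 neural progenitor markers. They were 0 and 1 of 7 extraembryonic endoderm markers. Among all genes, 28.1% were higher and 20.9% lower in all 3 pairs. The part of these shifts in the lower replication genes was not tested.

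In ES cells, no replication gene was called. Among all genes, 0.00585% fell and the same share rose, 1 gene each. At an unadjusted limma p below 0.05 there was 1 replication gene, Prim1, against 8.46% of all genes. Log2 fold changes were below 0 for 32 of the 38 (57.3% of all genes), with a median of -0.16 against -0.03. Prim1, the catalytic primase subunit, read 11.54, 11.56 and 11.47 in wild type and 11.07, 11.42 and 11.17 in knockout (-0.30, SE 0.12; limma adjusted p = 0.564). Mcm10 read 11.17, 11.16 and 11.26 against 10.91, 11.09 and 10.73 (-0.28, SE 0.12; limma adjusted p = 0.59). Both had groups that did not overlap, as did 2 further replication genes, Rfc5 and Ezh2, against 9.3% of all genes on the lower side.

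The knockout ES arrays were not alike. Relative to the wild-type mean of each gene, the median replication gene stood at -0.19 in knockout array 1, 0.07 in array 2 and -0.23 in array 3, and the number of genes below that mean was 31, 12 and 38 of 38. Without knockout array 1, which carries the endoderm markers, the median log2 fold change was -0.09. It was -0.22 without array 2 and -0.07 without array 3, and no replication gene was called in any of these fits. Pola1 showed the widest spread, with 10.32, 11.55 and 10.93 in wild type and 9.49, 11.23 and 10.82 in knockout, and its log2 fold change of -0.415 (SE 0.47) cannot be read as a difference. For 24 of the 38 genes the 95% confidence interval stayed within 0.5 log2 units of 0. In simulated ES arrays 200 of 17091 genes were changed. No change of 0.25 or 0.5 log2 units was recovered, and 35% of changes of 1 were. Changes of the size measured in fibroblasts were thus not recovered at this spread and this number of changed genes.

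**Figure D4:**
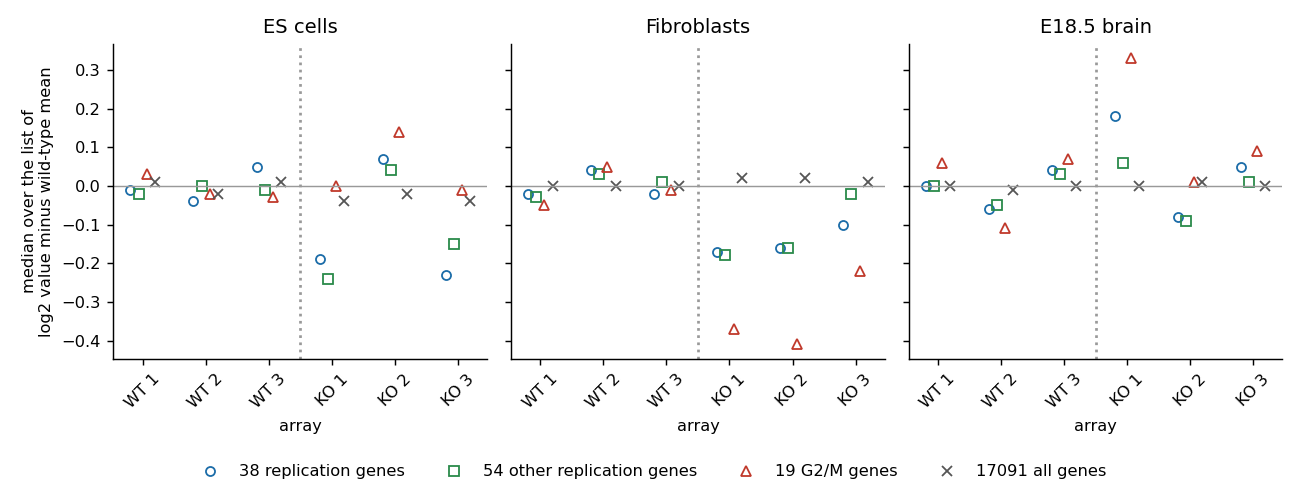
Median over each gene list of the log2 value minus the wild-type mean of the gene, for each of the 18 arrays (WT, wild type; KO, knockout). The replication genes lie at -0.17, -0.16 and -0.10 on the 3 knockout fibroblast arrays, while the knockout arrays of ES cells and brain fall on both sides of 0.

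In E18.5 brain, no replication gene was called either (0.00585% of all genes fell and 0% rose). At an unadjusted limma p below 0.05 there were 3 replication genes, all on the higher side, against 7.33% of all genes. Log2 fold changes were below 0 for 16 of the 38 (49.5% of all genes) and above 0 for 22, and the median was 0.05. Mcm6 read 8.91, 8.86 and 8.97 in wild type and 9.32, 9.10 and 9.40 in knockout (0.36, SE 0.10; limma adjusted p = 0.627). Pola2, the regulatory subunit of polymerase alpha, read 8.71, 8.72 and 8.38 against 9.08, 9.05 and 8.79 (0.37, SE 0.12; limma adjusted p = 0.627), but its second probe set gave 0.06. For both genes, and for Mcm10, every knockout array was above every wild-type array, against 7.98% of all genes; for Orc2 every one was below, against 6.06%. The third gene, Mcm4, had a log2 fold change of 0.34 with overlapping groups (adjusted p = 0.66).

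Knockout brain array 1 stood highest, with the median replication gene 0.18 above its wild-type mean, against -0.08 in knockout array 2 and 0.05 in array 3. On the same scale the G2/M genes had a median of 0.33 on that array, with none of the 19 below its wild-type mean, against -0.11 to 0.09 on the other brain arrays; their part in these values was not tested. The 7 neural progenitor markers had a median of 0.13 there and 0.12 on wild-type array 3. Without knockout array 1 the median log2 fold change of the replication genes was -0.04. For 31 of the 38 genes the 95% confidence interval stayed within 0.5 log2 units of 0. The simulated brain arrays returned 36.1% of changes of 0.5 and none of 0.25.

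Whether the knockout effect differed between cell types was tested gene by gene in the fit of all 18 arrays. Lig1 alone differed between fibroblasts and brain, by -0.62 (SE 0.12; limma adjusted p = 0.0386), against 0.222% of all genes on that side and 0.111% on the other; 10 replication genes had an unadjusted p below 0.05, against 9.79% of all genes. Its brain arrays read 9.88, 10.06 and 9.85 in wild type and 10.02, 10.17 and 10.09 in knockout, which is 0.17 where fibroblasts had -0.45. The Lig1 call was lost when any of 11 arrays was left out (limma adjusted p up to 0.131). These were every fibroblast array and every brain array except wild-type array 2. Mcm6 had the larger difference, -0.66 (SE 0.155), and was not called (adjusted p = 0.086). Between fibroblasts and ES cells no replication gene was called (0.55% of all genes on the lower side and 0.445% on the higher); the smallest p belonged to Rrm1 (-0.49, SE 0.17; adjusted p = 0.174) and Lig1 (-0.35, SE 0.12; adjusted p = 0.192), with 3 genes at an unadjusted p below 0.05 (14.2% of all genes). Rrm1 read 12.24, 12.19 and 12.29 in wild-type and 12.43, 12.36 and 12.24 in knockout ES cells. Between brain and ES cells none was called (0.158% and 0.117% of all genes); Mcm6 (0.525, SE 0.155) and Mcm10 (0.39, SE 0.12) had adjusted p of 0.139, with 7 genes at an unadjusted p below 0.05 (15% of all genes). The mean effect over the 3 cell types was called for no replication gene (0.105% of all genes fell and 0.193% rose), with 8 at an unadjusted p below 0.05 (12.2% of all genes) and Prim1 the smallest (-0.23, SE 0.07; adjusted p = 0.172). The replicate block pairs same-numbered arrays in all 3 cell types. With it Pola1 was called (-0.32, limma adjusted p = 0.541 without the block and 0.0407 with it). Log2 fold changes were below 0 in all 3 cell types for 14 genes and above 0 in all 3 for none. For 15 genes they were below 0 in ES cells and fibroblasts and above 0 in brain. The fall of Ccnc itself was smaller in fibroblasts than in ES cells, by 1.07 (SE 0.22, limma adjusted p = 0.0348). It was smaller in brain than in ES cells by 1.67 (SE 0.22, limma adjusted p = 0.00365). The part of this in the differences above was not tested.

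Between wild-type cell types, all 38 genes were lower in brain than in ES cells (47.7% of all genes), with a median log2 difference of -3.05, and 37 were lower in fibroblasts than in ES cells (40.1% of all genes), with a median of -1.82. Between brain and fibroblasts, 35 were lower in brain (35.4% of all genes), with a median of -1.15. No replication gene was called higher in any of the 3 contrasts, in which 26.1%, 24.1% and 25.5% of all genes were. The order was ES cells, then fibroblasts, then brain for 37 genes, and Ezh2 alone had brain above fibroblasts, by 0.04, a difference that was not called (adjusted p = 0.788). The median of all genes was itself -0.225 between brain and ES cells and -0.14 between fibroblasts and ES cells. After quantile normalization of the 18 arrays these became -0.075 and -0.035, and the medians of the replication genes -2.83 and -1.61.

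**Figure D5:**
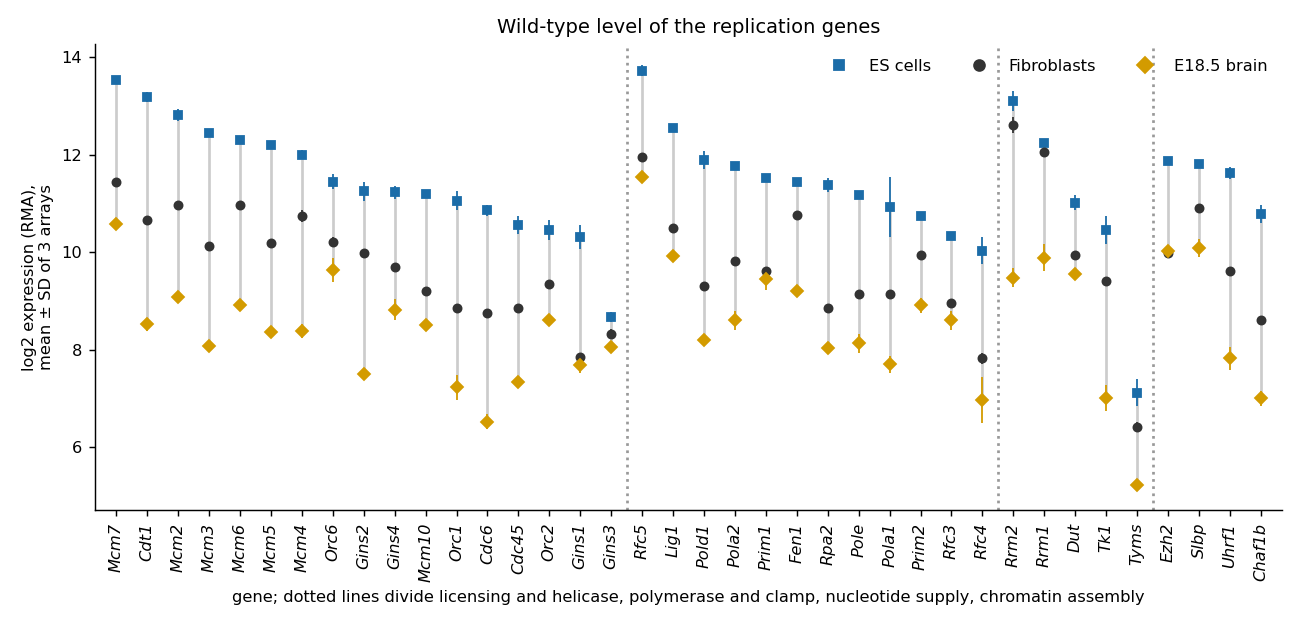
Wild-type log2 expression of each replication gene in ES cells, fibroblasts and E18.5 brain, mean and SD of 3 arrays. ES cells are highest for all 38 genes, and brain is lowest for 37. Comparing levels of a gene between cell types assumes that the arrays were normalized jointly, which is not stated. Levels may not be compared between genes.

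Cdt1 had mean log2 levels of 13.18, 10.66 and 8.52 in ES cells, fibroblasts and brain, and its difference between brain and ES cells, -4.66 (SE 0.09), was the largest of the 38. Mcm3, at 12.45, 10.12 and 8.07, and Cdc6, at 10.86, 8.75 and 6.52, followed, with -4.38 and -4.35 between brain and ES cells. The GINS subunit Gins3 had the narrowest range, 8.67, 8.32 and 8.06. Rrm1 stood at 12.24 in wild-type ES cells and 12.06 in wild-type fibroblasts, a difference of -0.18 that was not called (SE 0.12; limma adjusted p = 0.182), and Rrm2 differed by -0.50 (SE 0.16; adjusted p = 0.0113). In brain both were low, at 9.89 and 9.48, and Rrm2 had the largest drop of the 38 from fibroblasts, -3.12 (SE 0.16). Ezh2, Gins1 and Prim1 were the genes whose wild-type levels in fibroblasts and brain were not called different, with Prim1 at 9.62 and 9.45 (adjusted p = 0.214) and Gins1 at 7.85 and 7.68 (adjusted p = 0.303).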

How the data were processed

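The deposited log2 values were made by the authors with RMA, per the submitters' processing notes; its version, the array type and whether the arrays were normalized jointly are not stated there. Of 24185 probe sets, 64 were controls and 22560 matched a gene symbol in RefSeq (GRCm38.p6); the brightest by mean stood for each of 17091 genes. Knockout was tested against wild type with limma 3.58.1 (lmFit, eBayes with trend; R 4.3.3) within each cell type, with Benjamini-Hochberg adjustment over all genes and a threshold of 0.05; a limma fit of 18 arrays with 6 group means gave differences between cell types. No gene was filtered out.

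The members and lists were chosen with earlier results of these data known. Arrays were listed for the 3 members of each functional group with the smallest fibroblast p and for 2 members per other contrast, and up to 4 genes were named per other list; E2f7, Pole4, the markers, and the arrays of Ccne2, Mcm7, Cdt1, Dut and, in ES cells, Pola1 were added after their values were seen. Same-numbered arrays deviated together in fibroblasts (r = 0.36, 0.16 and 0.19) and brain (0.29, 0.35 and 0.47). In ES cells they did so less evenly (0.37, 0.32 and 0.08). The labels give the numbers as biological replicates and state no pairing. The main tests did not pair the arrays, and pairing was run only as an alternative. On simulated fibroblast data with 17091 genes, of which 200 were changed, 71.6% of changes of 0.5 and 15% of 0.25 were recovered. Arrays give no read depth, and their number limits the precision. Alternatives were another probe set rule, filter, scaling, prior, pairing, array weights and left-out arrays.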

Additional observations from a re-analysis of the deposited data

Results flagged for a closer look

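The effect of the knockout on Lig1 differed between fibroblasts and brain by a test of the difference itself, an interaction contrast of -0.62 (SE 0.12; limma adjusted p = 0.0386). Lig1 was lower in knockout fibroblasts on 3 of 3 arrays, and its brain groups overlapped. The call was lost in 11 of 27 alternatives, each of which left out 1 array (limma adjusted p = 0.0647 to 0.131). These were every fibroblast array and every brain array except wild-type array 2. The 27 also hold omissions of ES arrays, which do not enter the estimate of this difference but share in its error variance.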

How the results depend on the processing

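Of 1188 alternative values for named genes, 1089 kept direction and call, 70 lost the call, 22 gained one and 7 changed sign. An uncalled gene that stayed uncalled counted as kept, so this total does not measure how stable the calls were. The cause of the changes was not tested. The sign changes concerned fibroblast genes near 0: Gins2 (0.001 with array weights, -0.024 to 0.018 with an array left out), Cdc45 (-0.064 to 0.033), Orc2 (-0.063 to 0.007) and Dut (-0.024 to 0.074). The 11 replication genes that fell in fibroblasts became 1 in a fit of all 18 arrays, in which 114 of all genes fell against 842. They became 13 with a filter at the 40th percentile, 15 after quantile normalization, 14 with array weights and 6 to 12 with an array left out. For the filter, quantile normalization and array weights the share of all genes that fell is not given. Those counts cannot be set against it. With the replicate block 13 fell, the 11 with Rfc4 and Slbp, and the mean effect over cell types was called for 1 replication gene, Pola1, against 0. In the main test 1 replication gene differed between fibroblasts and brain. The number was 2 after quantile normalization, 8 with array weights and 0 to 2 with an array left out. Replication genes with a higher effect in brain than in ES cells numbered 0 to 2 (2 without knockout ES array 2, Mcm6 and Mcm10, against 0). Under these alternatives and the replicate block the share of all genes called is not given. Their counts cannot be set against it. In ES cells and brain 0 replication genes were called under every alternative run. The block in these fits changed no other call of a replication gene. In ES cells the block took the Ccnc call away (limma adjusted p = 0.0677). Leaving out 1 of several arrays did so too (up to 0.299). Wild-type levels could not be fitted with the replicate block, because the numbers lie within a cell type. Over all genes, the fibroblast calls fell from 842 lower and 1216 higher to 114 and 96 in the fit of all 18 arrays, ranged over 407 to 909 and 493 to 1700 with an array left out, and were 1831 higher with array weights. The same fit called 275 lower and 357 higher genes in ES cells, against 1 and 1. Of the other lists in fibroblasts, the further replication genes that fell numbered 15, or 6 to 21 with an array left out. The S-phase entry regulators that fell numbered 5, or 8 after quantile normalization. With 3 arrays a group, changes of 0.25 log2 units were not recovered in the simulated ES and brain arrays, and Tyms was dim.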
